A study of Mus musculus with 6 samples.

Results

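The type I interferon response genes are a list of 43 mouse genes. They are interferon-stimulated genes, sensors of foreign RNA and the transcription factors that carry the interferon signal. All were chosen by symbol, with earlier results of these data known. Of the 43, 41 were found among the 15398 genes of the table, and 33 of these had enough reads to be tested. Mx1 and Mx2 were not analysed here. The data are RNA-seq of 6 libraries from a stable mouse line labelled bEND.3, a name used for a brain endothelial line. In 3 libraries the cells stably expressed circSlc17a5, a circular RNA named after Slc17a5, and in 3 they carried the corresponding empty vector (control). The labels give no strain, clone, passage or culture for the libraries, so each p-value sets the difference against the spread of these libraries alone, and that spread may be technical.

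Type I interferons bind a receptor made of IFNAR1 and IFNAR2, and the signal reaches the nucleus through ISGF3, a complex that holds STAT2 and IRF9. ISGF3 binds the interferon-stimulated response element (ISRE) in promoters and switches on genes that block viral replication. Production of interferon starts when RIG-I (gene Ddx58) or MDA5 (Ifih1) meets unusual RNA and signals through MAVS to IRF3 and IRF7. Foreign circular RNA has been studied as a trigger and endogenous circular RNA as a restraint of these sensors and of PKR (Eif2ak2), and the comparison shows what the response genes did when a circular RNA was expressed from a stable construct.

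Many of the promoters share the ISRE, and the stretches below show it where expression differed in direction or was close to nil. The ISRE core was searched as GAAANNGAAA on both strands (TTTCNNTTTC on the other), from 250 bases before to 50 bases after the gene start, in the RefSeq promoters of build GRCm38.p6. The core was present for 19 of 34 members with an entry (55.9%), against 1079 of 27025 genes (3.99%) and 1131 of 32851 windows (3.44%). It was present for 4 of 8 members that fell, 1 of 3 that rose, 10 of 18 not called and 4 of 5 too low to test. These classes are too small to tell whether its presence differed between them, and 9 members, Usp18 among them, had no entry. The interferon-gamma element (GAS, TTCNNNGAA, which reads the same on both strands) was found for 7 of the 34 (20.6%) and for 9.55% of genes, and an ISRE core touched a GAS in the windows of Ifitm3 and Bst2. Each line runs 5′ to 3′ on the strand of the gene, ends before the gene start of the promoter entry, and has the ISRE cores in capitals. Isg15 (chr4:156200845-156200926, minus strand), Gbp2 (chr3:142620574-142620643, plus strand) and Trim30a (chr7:104465194-104465259, minus strand) fell, Cxcl10 (chr5:92349063-92349132, minus strand) rose, and Ifit1 (chr19:34640755-34640843, plus strand) and Ifit3 (chr19:34583343-34583446, plus strand) had almost no reads in either group. The 3 cores of Isg15 overlap one another. The Ifit3 stretch lies inside the gene span listed for Ifit3 (34583119 to 34588982), which starts before the gene start of its promoter entry.
Isg15: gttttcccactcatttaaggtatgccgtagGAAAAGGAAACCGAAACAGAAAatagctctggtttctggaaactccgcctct
Gbp2: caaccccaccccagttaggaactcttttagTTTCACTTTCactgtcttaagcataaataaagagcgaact
Trim30a: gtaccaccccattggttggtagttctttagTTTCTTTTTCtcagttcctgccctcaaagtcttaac
Cxcl10: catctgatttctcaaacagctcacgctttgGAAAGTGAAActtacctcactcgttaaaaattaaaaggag
Ifit1: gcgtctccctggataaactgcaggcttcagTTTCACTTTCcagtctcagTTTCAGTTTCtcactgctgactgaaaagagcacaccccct
Ifit3: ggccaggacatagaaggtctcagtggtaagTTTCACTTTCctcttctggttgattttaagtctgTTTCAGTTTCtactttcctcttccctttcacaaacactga

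Cells with circSlc17a5 had lower levels of 9 interferon response genes and higher levels of 3. The genes that fell were Usp18, Oasl2, Xaf1, Gbp2, Trim30a, Ifih1, Irf3, Isg15 and Ifnar2, and those that rose were Cxcl10, Ifit2 and Mavs. The changes were small, between 1.27-fold and 1.85-fold. A gene was called at a Benjamini-Hochberg adjusted p under 0.05 over all 11722 tested genes by edgeR's quasi-likelihood test of counts, with folds given as circSlc17a5 over control. Of the 33 tested members, 27.3% fell and 9.09% rose, where 10.2% of all tested genes fell and 11.8% rose. As the list was chosen with earlier results of these data known, these shares only describe it. The remaining 21 were not called, and 14 of these had a negative log2 fold change. The median log2 fold change of the 33 was -0.145, and that of all tested genes was -0.002. In 13 of the 33 (39.4%) all circSlc17a5 libraries lay below all control libraries, and in 3 all lay above, where 20.8% and 21.8% of all tested genes did so. In these bulk samples fewer cells of a kind and less RNA per cell cannot be told apart.

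**Figure D1:**
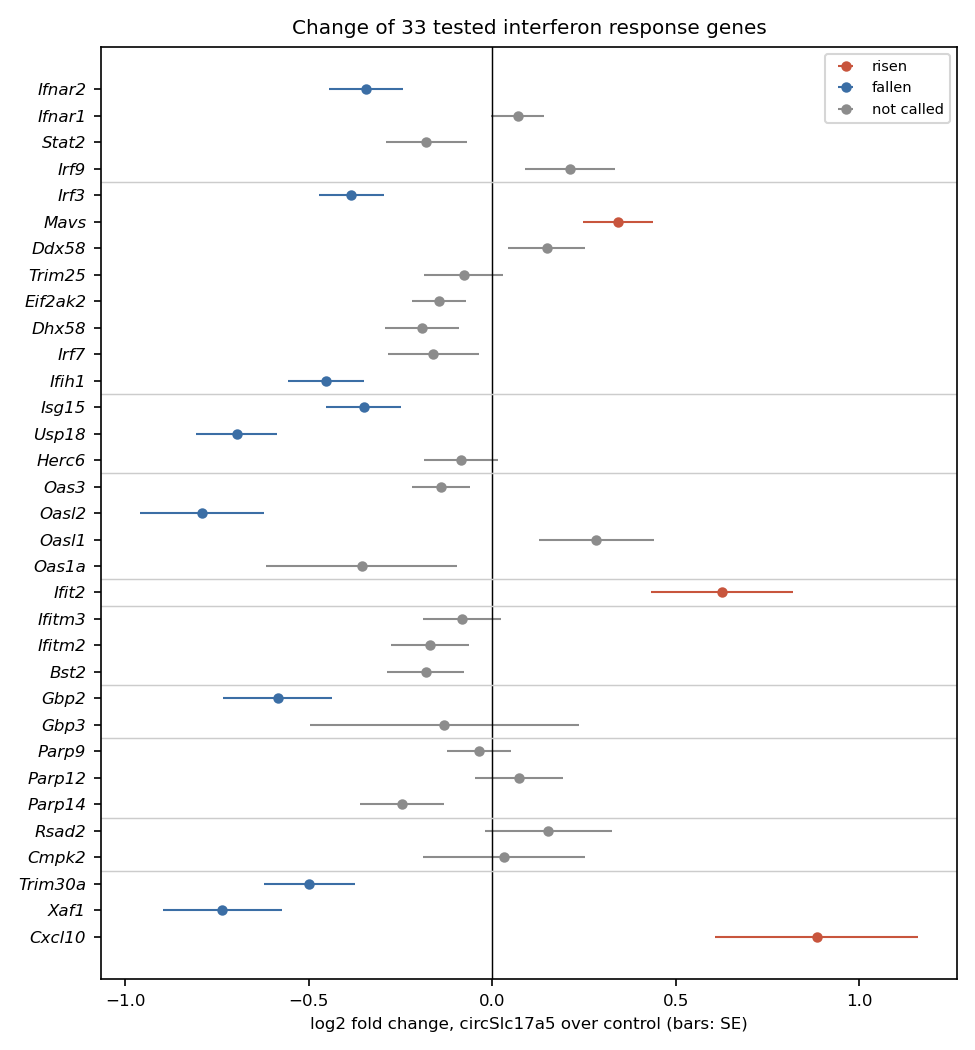
Log2 fold change of the 33 tested members (circSlc17a5 over control, 3 libraries each), grouped by role between grey lines, with bars for the standard error. The 9 fallen genes lie left of 0 and the 3 risen genes right of it, and most of the 21 others lie near 0.

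Library totals lay between 16848513 and 17600230 counts. Control replicate 1 correlated less with the other control libraries (0.984 and 0.989 on log2 CPM, counts scaled to a common library size) than those did with each other (0.993). Of 12 endothelial markers 3 were tested and 0 called, with 5 to 11 counts of Pecam1, 14 to 35 of Cdh5 and 0 to 5 of Kdr per library. Flt1 held most of their summed CPM, at a mean FPKM of 8.71, and that sum was 53.7 to 59.0 in control and 60.8 to 71.0 in circSlc17a5 libraries, higher in all of the latter. Of 7 markers of simple epithelium 4 were tested, and 2 had 0 counts in every control library. Krt8 and Krt18 were abundant, at mean FPKM values (counts scaled by gene length and library size) of 403 and 1004. The summed CPM of 7 epithelial markers was between 1956 and 2524 in control and between 1772 and 1977 in circSlc17a5 libraries, with Krt18 called lower (log2 fold change -0.46) and Epcam, at a mean FPKM of 0.858, called higher (1.21). Of 7 tested markers of mural cells and fibroblasts, Pdgfrb (log2 fold change 1.18) and Pdgfra (0.74) rose and 0 fell, and the summed CPM of that list overlapped between the groups. The part of these markers in the interferon genes was not tested. The pan-leukocyte gene Ptprc had 1 count in control replicate 1 and 0 in every other library, while the macrophage-associated gene Cd68 stood at a mean FPKM of 340.

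Among the members, levels spanned from nearly nothing to some of the strongest transcripts. Per length, 12 members had a mean FPKM of at least 10 over the 6 libraries, 18 lay between 1 and 10 and 11 below 1. The highest were the membrane proteins Ifitm3 and Ifitm2, which block fusion of viruses with endosomes, at mean FPKM values of 1308 and 1107. Next came Bst2 at 125, which tethers budding virus to the cell surface, and the receptor gene Ifnar2 at 73.6.

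**Figure D2:**
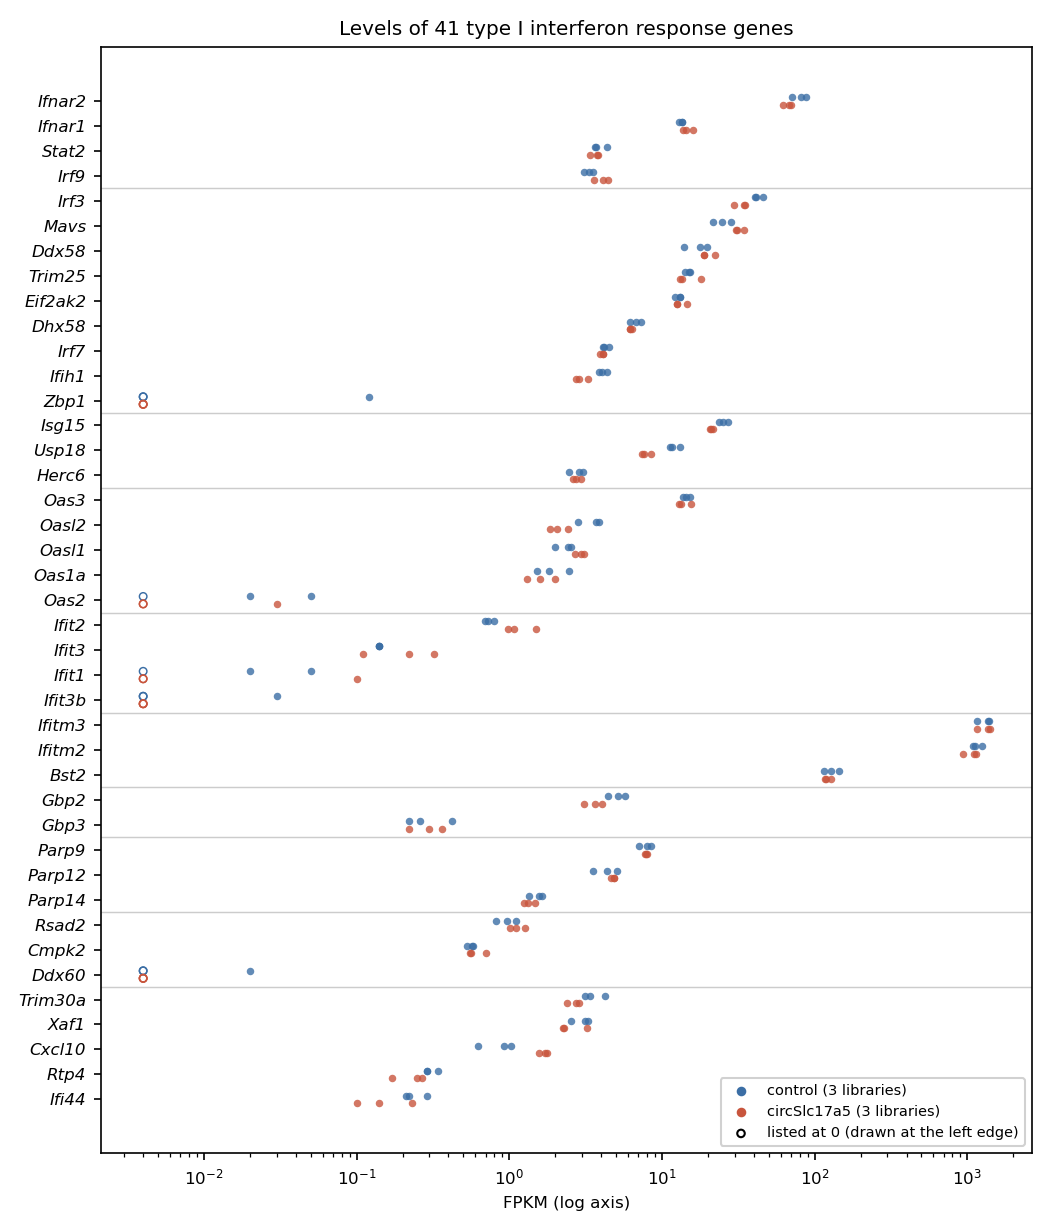
FPKM of the 41 members in each of the 6 libraries on a log axis, with control in blue, circSlc17a5 in red and values of 0 as open circles at the left edge. Ifitm3 and Ifitm2 stand highest, and Zbp1, Ddx60, Ifit3b, Oas2 and Ifit1 are listed at 0 in some libraries.

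The abundant Ifitm genes and Bst2 did not pass the test. Ifitm3 gave 8620, 9266 and 7692 counts per control library against 7393, 8673 and 8945 per circSlc17a5 library. The groups overlapped, and the log2 fold change was -0.08 (SE 0.106, adjusted p = 0.588). Ifitm2 had 6847, 7860 and 6814 against 5817, 6908 and 7086 counts, again overlapping, at log2 fold change -0.17 (SE 0.105, adjusted p = 0.251). Bst2 had 1045, 1356 and 1219 against 1065, 1082 and 1162 counts, at log2 fold change -0.18 (SE 0.105, adjusted p = 0.221). When GC content and length were offset in the fit, the log2 fold changes of Ifitm3, Ifitm2 and Bst2 turned to 0.07, 0.01 and 0.01. Without control replicate 1, the library that stands apart, Bst2 was called lower (log2 fold change -0.28, edgeR adjusted p = 0.0214), and without that library and circSlc17a5 replicate 2 it was not (adjusted p = 0.0692). Ifitm2 and Ifitm3 are close paralogs, and the handling of reads common to both is a point not given in the sources used here.

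At the other end, 8 members had too few reads to test. Ifit1, a sensor of RNA caps and among the strongest interferon targets, had 0 to 4 counts per library, Ifit3 3 to 9 and its near copy Ifit3b 0 to 1. Oas2, an enzyme making 2′-5′ oligoadenylate, had 0 to 3, and Ddx60, a helicase linked to RIG-I, 0 to 1. The chaperone gene Rtp4 had 4 to 7 and Ifi44 4 to 13. Zbp1, a sensor of left-handed RNA and DNA that can start necroptosis, had 2 counts in control replicate 1 and 0 in every other library. At the depth of these libraries the 8 genes were close to nil in both groups, and no fold is given for them.

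Of the receptor and ISGF3 genes, Ifnar2 fell and Ifnar1, Stat2 and Irf9 were not called. Ifnar2 (Entrez 15976, chromosome 16, 91372783 to 91405589, plus strand), the high-affinity chain of the receptor, gave 1167, 1449 and 1377 counts per control library against 1009, 1124 and 1126 per circSlc17a5 library. All circSlc17a5 libraries lay below all controls. Its normalised level went from 79.1 ± 9.73 to 62.3 ± 5.15 CPM (SD, n = 3 libraries each), 1.27-fold lower (log2 fold change -0.34, SE 0.101, edgeR adjusted p = 0.0372). The call ended without any 1 library other than control replicate 1 (adjusted p up to 0.148), on library totals with no TMM scaling, on FPKM values and with the GC and length offset (log2 fold change -0.21, adjusted p = 0.0558).

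Ifnar1, the other receptor chain (Entrez 15975, chromosome 16, 91485215 to 91510523, plus strand), gave 1538, 1531 and 1602 counts per control library against 1842, 1666 and 1573 per circSlc17a5 library. The groups overlapped (log2 fold change 0.07, SE 0.071, adjusted p = 0.49). Stat2, which brings the activation domain to ISGF3, had 262, 270 and 324 against 270, 242 and 271 counts (log2 fold change -0.18, SE 0.110, adjusted p = 0.245). Irf9, which binds DNA in the complex, had 131, 114 and 125 against 153, 160 and 131 counts (log2 fold change 0.21, SE 0.123, adjusted p = 0.223). In Stat2 and Irf9 the groups overlapped.

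The deposited transcript table put 90.9% of the Ifnar2 counts of control and 90.7% of circSlc17a5 libraries on NM_001110498.1. GENCODE lists this transcript as Ifnar2-203, 1099 bases long with a coding sequence of 744 bases. The longer NM_010509.2, listed as Ifnar2-201 with a coding sequence of 1539 bases, held 1.61% and 2.64%. Mice are known to make a soluble form of IFNAR2 beside the transmembrane chain. The split between transcripts that share exons is an estimate, and NM_010509.2 had 0 counts in control replicate 2 and circSlc17a5 replicate 3 but 51.2 and 83.2 in control replicate 1 and circSlc17a5 replicate 2.

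Among the RNA sensors and the factors that induce interferon, Ifih1 and Irf3 fell, Mavs rose, and Ddx58, Dhx58, Irf7, Trim25 and Eif2ak2 were not called. Ifih1 (MDA5, sensor of long double-stranded RNA; Entrez 71586, chromosome 2, 62593289 to 62646255, minus strand) gave 347, 311 and 381 counts per control library against 292, 245 and 250 per circSlc17a5 library. The groups were separate. Its level went from 20.5 ± 1.82 to 15.01 ± 1.17 CPM (SD, n = 3), 1.37-fold lower (log2 fold change -0.45, SE 0.103, edgeR adjusted p = 0.0174). The call ended without control replicate 3, circSlc17a5 replicate 2 or circSlc17a5 replicate 3 (adjusted p up to 0.0718) and stood with the GC and length offset (log2 fold change -0.65, adjusted p = 0.00164).

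Irf3 (Entrez 54131, chromosome 7, 44997648 to 45002848, plus strand), the factor that starts transcription of interferon genes once phosphorylated, gave 1073, 1171 and 1066 counts per control library against 810, 923 and 894 per circSlc17a5 library. Every circSlc17a5 library lay below every control. The level was 65.5 ± 4.58 against 50.2 ± 4.28 CPM (SD, n = 3), 1.31-fold lower (log2 fold change -0.38, SE 0.088, edgeR adjusted p = 0.0175). The call ended without control replicate 2, control replicate 3 or circSlc17a5 replicate 1 (adjusted p up to 0.0781).

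Mavs (Entrez 228607, chromosome 2, 131234063 to 131248025, plus strand), the mitochondrial adaptor on which RIG-I and MDA5 converge, moved the other way. Its counts were 1244, 935 and 1085 per control library against 1540, 1383 and 1362 per circSlc17a5 library, with no overlap. The level rose from 64.5 ± 8.24 to 81.7 ± 3.77 CPM (SD, n = 3), 1.27-fold (log2 fold change 0.34, SE 0.095, edgeR adjusted p = 0.0311). The call ended without any 1 library other than control replicate 1 (adjusted p up to 0.124). With the GC and length offset it stood, at a log2 fold change of 0.32 (adjusted p = 0.0261).

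The other sensors showed differences within or close to the spread between libraries. Ddx58 (RIG-I, sensor of RNA with a 5′ triphosphate) had 1559, 1142 and 1450 against 1757, 1515 and 1492 counts, overlapping, at log2 fold change 0.15 (SE 0.104, adjusted p = 0.307). Its listed span overlaps those of other genes, among them Zfp984 and Spocd1. Dhx58 (LGP2, which modulates both sensors) had 247, 230 and 273 against 224, 234 and 222 counts, at log2 fold change -0.19 (SE 0.1, adjusted p = 0.178).

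Eif2ak2 (PKR, a kinase that stops translation on binding double-stranded RNA) had 1339, 1328 and 1403 against 1394, 1221 and 1202 counts, at log2 fold change -0.14 (SE 0.073, adjusted p = 0.165). With the GC and length offset Eif2ak2 was called lower (log2 fold change -0.29, adjusted p = 0.0144). Irf7, the factor that amplifies interferon production, had 109, 111 and 122 against 106, 105 and 106 counts, at log2 fold change -0.16 (SE 0.124, adjusted p = 0.352). After scaling, the circSlc17a5 libraries of Dhx58, Eif2ak2 and Irf7 all lay below the controls, by margins that did not pass the test. Trim25, a ubiquitin ligase of the RIG-I pathway, had 1280, 1414 and 1394 against 1623, 1186 and 1213 counts (log2 fold change -0.08, SE 0.108, adjusted p = 0.614), with circSlc17a5 replicate 1 highest of all and the other circSlc17a5 libraries lowest after scaling.

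**Figure D3:**
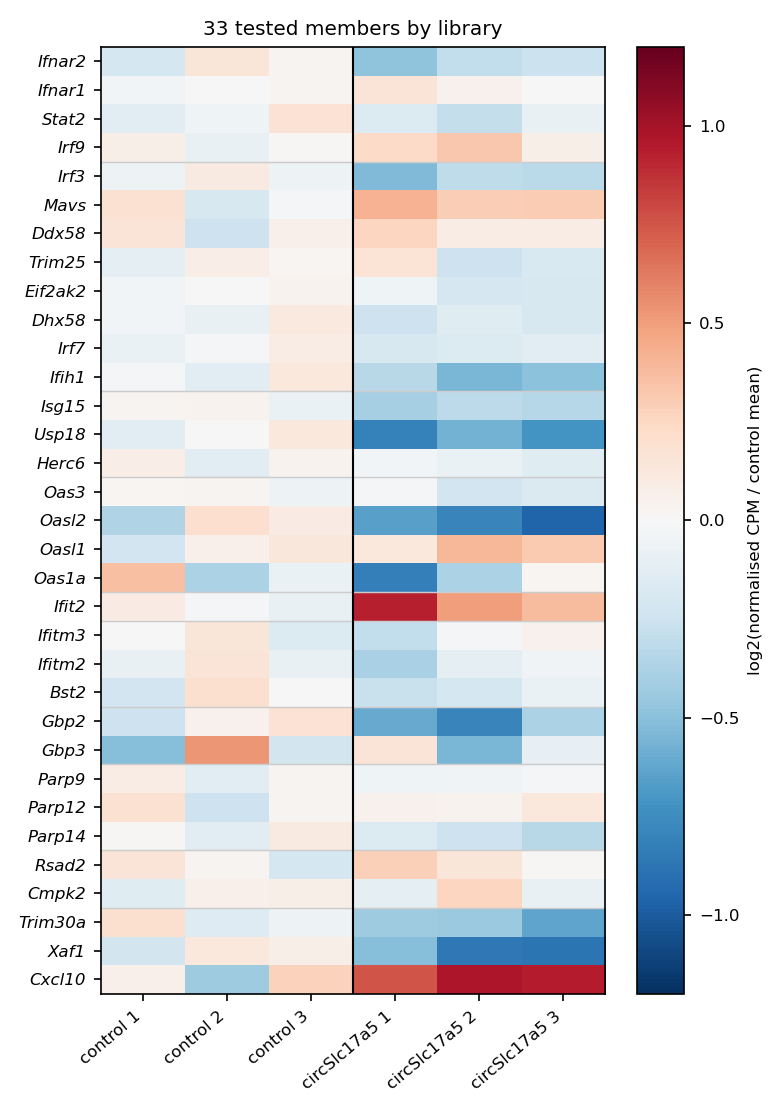
Normalised CPM of the 33 tested members in each library as log2 of the ratio to the control mean (colour scale, red higher and blue lower). Usp18 and Oasl2 are blue in all 3 circSlc17a5 libraries, Cxcl10 and Ifit2 red in all 3, and Oasl2, Gbp2 and Xaf1 are already paler blue in control replicate 1.

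The ISG15 system attaches the ubiquitin-like protein ISG15 to other proteins, and Usp18 removes it and also blocks signalling at IFNAR2. Both genes fell. Usp18 (Entrez 24110, chromosome 6, 121245906 to 121270917, plus strand) gave 288, 307 and 345 counts per control library against 189, 219 and 193 per circSlc17a5 library. The groups were far apart, at 18.6 ± 1.71 and 11.5 ± 1.01 CPM (SD, n = 3). The fold was 1.62 lower (log2 fold change -0.70, SE 0.110, edgeR adjusted p = 0.0045). Usp18 was the 1 member of the 12 called whose call stood in all 6 fits with 1 library left out, with log2 fold changes from -0.77 to -0.63 and a highest adjusted p of 0.0295.

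Isg15 (Entrez 100038882, chromosome 4, 156199424 to 156200818, minus strand) gave 221, 216 and 203 counts per control library against 172, 178 and 170 per circSlc17a5 library, with little spread and no overlap. The level went from 12.7 ± 0.61 to 9.93 ± 0.30 CPM (SD, n = 3), 1.27-fold lower (log2 fold change -0.35, SE 0.102, edgeR adjusted p = 0.0359). The call ended by the DESeq2 Wald test (adjusted p = 0.0775), with the GC and length offset (log2 fold change -0.19, adjusted p = 0.184), on library totals, and without any 1 library other than control replicate 1 (adjusted p up to 0.131). Herc6, the main ligase of ISG15 in mice, had 258, 216 and 251 against 251, 236 and 221 counts and was not called (log2 fold change -0.09, SE 0.101, adjusted p = 0.55).

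Of the OAS family, enzymes and related proteins that sense double-stranded RNA, Oasl2 fell. Oasl2 (Entrez 23962, chromosome 5, 114896926 to 114912245, plus strand) gave 116, 167 and 159 counts per control library against 100, 88 and 77 per circSlc17a5 library, the lowest control being replicate 1. The level went from 8.76 ± 1.73 to 5.05 ± 0.54 CPM (SD, n = 3), 1.73-fold lower (log2 fold change -0.79, SE 0.169, edgeR adjusted p = 0.0141). The call ended without control replicate 3 or circSlc17a5 replicate 2 (adjusted p up to 0.0609). Its neighbour Oasl1, which restrains translation of Irf7 in mice, had 64, 76 and 82 against 86, 101 and 93 counts and was not called (log2 fold change 0.28, SE 0.157, adjusted p = 0.202). Oas3 stood at -0.14 on the log2 scale (SE 0.079, adjusted p = 0.206) and Oas1a -0.36 (SE 0.260, adjusted p = 0.325), each with overlapping groups. With the GC and length offset Oas3 was called lower (log2 fold change -0.26, adjusted p = 0.0231).

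Ifit2 (Entrez 15958, chromosome 19, 34550550 to 34576534, plus strand), a binder of viral RNA, was the only tested member of the IFIT family and rose. Its counts were 50, 45 and 44 per control library against 94, 68 and 61 per circSlc17a5 library, with circSlc17a5 replicate 1 the highest. The level went from 2.75 ± 0.17 to 4.24 ± 0.89 CPM (SD, n = 3), 1.54-fold higher (log2 fold change 0.63, SE 0.194, edgeR adjusted p = 0.043). Cxcl10 (Entrez 15945, chromosome 5, 92346638 to 92348889, minus strand), a chemokine that draws T cells, had 13, 9 and 15 against 22, 25 and 24 counts. The groups were separate at these low counts, with 0.73 ± 0.17 and 1.36 ± 0.11 CPM (SD, n = 3), 1.85-fold higher (log2 fold change 0.88, SE 0.276, edgeR adjusted p = 0.0444). Cxcl10 overlaps the listed span of Art3.

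Neither rise stood without any 1 library other than control replicate 1 (adjusted p up to 0.187 for Ifit2 and 0.151 for Cxcl10) or by the DESeq2 Wald test (0.0836 and 0.166). With the GC and length offset Ifit2 was not called (adjusted p = 0.0643) and Cxcl10 was (adjusted p = 0.0266). Without a filter on low counts Cxcl10 was also not called.

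The guanylate-binding protein gene Gbp2 (Entrez 14469, chromosome 3, 142620663 to 142638008, plus strand), whose GTPase attacks membranes around pathogens, fell. It gave 164, 196 and 219 counts per control library against 135, 115 and 150 per circSlc17a5 library, with no overlap. The fold was 1.5 lower (log2 fold change -0.58, SE 0.148, edgeR adjusted p = 0.0243), and the call ended without control replicate 2, control replicate 3, circSlc17a5 replicate 1 or circSlc17a5 replicate 2 (adjusted p up to 0.0961). Gbp3 had only 9 to 18 counts per library and stood at -0.13 on the log2 scale (SE 0.365, adjusted p = 0.815).

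Xaf1 (Entrez 327959, chromosome 11, 72301461 to 72313733, plus strand), a pro-apoptotic antagonist of XIAP, gave 99, 122 and 121 counts per control library against 85, 65 and 63 per circSlc17a5 library. In CPM the groups were separate and the fold was 1.67 lower (log2 fold change -0.74, SE 0.162, edgeR adjusted p = 0.0157). The call ended without control replicate 3, circSlc17a5 replicate 2 or circSlc17a5 replicate 3 (adjusted p up to 0.0657) and on FPKM values. In FPKM the groups overlapped, at 2.55, 3.12 and 3.3 in control against 3.22, 2.3 and 2.24 in circSlc17a5 libraries. On log2(FPKM + 1) the log2 fold change was only -0.16 (limma adjusted p = 0.372). Trim30a (Entrez 20128, chromosome 7, 104409025 to 104465193, minus strand), a restrainer of inflammatory signalling, gave 251, 192 and 209 counts per control library against 171, 165 and 142 per circSlc17a5 library. Again no library of one group reached the other, and the fold was 1.41 lower (log2 fold change -0.50, SE 0.124, edgeR adjusted p = 0.023). Its call ended without control replicate 3 or any 1 circSlc17a5 library (adjusted p up to 0.0763), on FPKM values and on library totals. Trim30a has close relatives in its cluster, so reads common to them make its count uncertain.

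None of the ADP-ribosyltransferase genes passed the test. Parp14, which promotes the interferon response, had 188, 165 and 200 against 175, 160 and 148 counts. Its circSlc17a5 libraries lay below the controls after scaling (log2 fold change -0.25, SE 0.114, adjusted p = 0.136), and it was called lower with the GC and length offset (log2 fold change -0.48, adjusted p = 0.011). Parp9, which works with DTX3L, stood at a log2 fold change of -0.04 (adjusted p = 0.786). Parp12, which restricts several viruses, stood at 0.07 (adjusted p = 0.682), and in both the groups overlapped. Rsad2 (viperin, which makes a chain-ending nucleotide) had 66, 59 and 51 against 76, 67 and 60 counts. Its neighbour Cmpk2, a mitochondrial nucleotide kinase, had 26, 29 and 30 against 28, 35 and 27. Rsad2 stood at log2 fold change 0.15 (adjusted p = 0.527) and Cmpk2 at 0.03 (adjusted p = 0.931), and the groups overlapped.

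Across the list, the number of calls rested on single libraries. Of the 12 called members, 12 stood without control replicate 1, which stands apart from the other controls. Without control replicate 2 it was 5, without control replicate 3 it was 1, and without circSlc17a5 replicates 1, 2 and 3 it was 4, 2 and 4. Calls over all genes moved too, from 2584 with all 6 libraries to 4699, 999 and 756 when control replicates 1, 2 and 3 were left out in turn, and to 462, 697 and 1085 for circSlc17a5 replicates 1, 2 and 3. All 12 kept their sign in each of these 6 fits. With the GC and length offset 11 members fell and 2 rose, where 13.1% and 9.89% of all genes did. By the DESeq2 Wald test 8 fell and 1 rose, where 10.1% and 11.2% of all genes did. In the authors' deposited table, made with DESeq2, 8 members had fallen and 1 had risen at q under 0.05, where 7.11% and 7.9% of all genes had. These 9 are among the 12 called here, and Cxcl10, Ifit2 and Isg15 are not called in the authors' deposited table.

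Other genes of the interferon system were read from 3 further lists with 132 genes in all, also chosen with earlier results of these data known. Among 57 tested interferon-stimulated genes outside the 43, 14 fell (24.6%, against 10.2% of all tested genes), 0 rose and 43 were not called, with a median log2 fold change of -0.18. The ubiquitin ligase gene Trim12a fell 1.86-fold (22.7 ± 4.07 to 12.2 ± 0.86 CPM, SD, n = 3; edgeR adjusted p = 0.0035), and it was the 1 gene of these 14 whose call stood with each library left out. Lgals9 (galectin-9) fell 1.31-fold (adjusted p = 0.0106) and Lgals3bp 1.27-fold (adjusted p = 0.0143). The call of Lgals9 ended without circSlc17a5 replicate 1, and that of Lgals3bp without control replicate 3, circSlc17a5 replicate 1 or circSlc17a5 replicate 2. Ly6e, the strongest transcript of the list at a mean FPKM of 759.9 and a restrictor of coronavirus entry, fell 1.32-fold (adjusted p = 0.0256), whereas Ifitm1 at 569.9 was not called (log2 fold change -0.15, adjusted p = 0.354). The count of 0 risen genes in this list came from edgeR.

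Of 36 tested genes of nucleic acid sensing and interferon induction, 2 rose and 3 fell (5.56% and 8.33%, both under the 11.8% and 10.2% of all tested genes), with a median log2 fold change of -0.03. Nlrc5, a transactivator of MHC class I genes, rose 1.37-fold (adjusted p = 0.0127). Rnf135 (Riplet), the ligase that activates RIG-I, fell 1.40-fold (adjusted p = 0.0137). Rnaseh2a, a subunit of RNase H2, fell 1.30-fold (adjusted p = 0.016) and Ikbke, a kinase of IRF3, 1.39-fold (adjusted p = 0.0247). The most abundant here were Sting1, the adaptor of DNA sensing (mean FPKM 106.9), at log2 fold change 0.19 (adjusted p = 0.0602), and Rnaseh2c (mean FPKM 70.4) at -0.40 (adjusted p = 0.0681), neither called. Each of the 5 calls ended with some library left out.

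Of 15 tested ligand, receptor and JAK-STAT genes 1 rose and 1 fell, 6.67% each way, also under the shares of all tested genes. Socs3, a feedback inhibitor of JAK signalling, rose 1.34-fold from 94.7 ± 9.18 to 127 ± 1.53 CPM (SD, n = 3; adjusted p = 0.00913), and its call stood with each library left out. Ifngr1, the ligand-binding chain of the interferon-gamma receptor, fell 1.29-fold (adjusted p = 0.0439), a call that ended without any 1 library other than control replicate 1. The most abundant were Stat3, which carries cytokine signals (mean FPKM 50.3), not called at log2 fold change 0.27 (adjusted p = 0.0624), and Socs3 (mean FPKM 45.0). Of the type I interferon ligands in this list, Ifnk had 0 or 1 count per library and Ifne the same, and Ifnb1 and the Ifna genes were not analysed here. Over the 3 lists together 3 of 108 rose and 18 fell (2.78% and 16.7%, against 11.8% and 10.2% of all tested genes). On library totals with no TMM scaling 7 rose and 9 fell, where 15.3% of all genes rose and 5.2% fell.

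**Figure D4:**
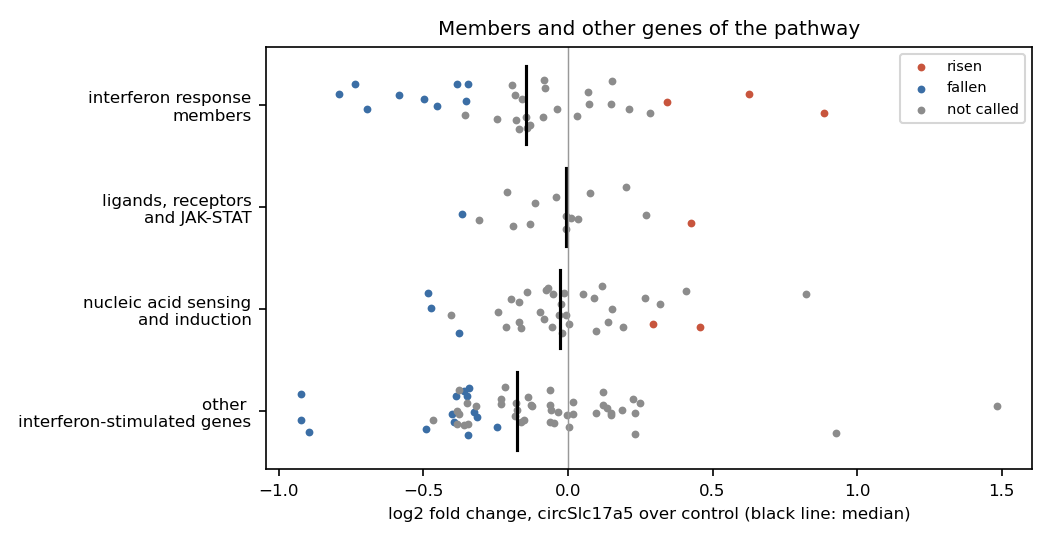
Log2 fold change (circSlc17a5 over control) of tested genes, with 1 point per gene, for the 33 members and the 3 further lists. Black lines mark medians of -0.14, -0.01, -0.03 and -0.18 from top to bottom, and called genes are coloured.

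Transcripts of the members were examined because the gene counts hide which form moved. The transcript table lists 87 transcripts of the members, of which 56 were tested. By edgeR 0 were called, where 0.00708% of all 28266 transcripts were (2 in number). The DESeq2 Wald test called 3 of 59 member transcripts as fallen and 0 as risen, where it called 3.65% of all 31876 transcripts as fallen and 3.03% as risen. The smallest p belonged to XM_006500187.4 of Ifih1, with 84.4, 237 and 128 counts per control library against 9.62, 13.4 and 12.7 per circSlc17a5 library. All circSlc17a5 libraries lay far below all controls (log2 fold change -3.70, SE 0.527, adjusted p = 0.171). This form held 43.3% of the Ifih1 counts of control and 4.54% of circSlc17a5 libraries. The other main form, NM_027835.3, had 263, 73.5 and 253 against 282, 232 and 236 counts, so that control replicate 2 was low where XM_006500187.4 was high.

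A like shift appeared in Eif2ak2, whose gene total was not called. NM_011163.4 gave 100, 16.3 and 73.7 counts per control library against 313, 229 and 227 per circSlc17a5 library (log2 fold change 1.97, SE 0.654, adjusted p = 0.282). XM_006523863.4 had 1239, 1312 and 1329 against 1081, 992 and 975 counts (log2 fold change -0.41, SE 0.069, adjusted p = 0.171). The groups were separate for both forms. In Mavs, NM_001206385.1 had 812, 187 and 336 against 1301, 1214 and 921 counts (log2 fold change 1.31, SE 0.536, adjusted p = 0.346), and NM_001206383.1 had 290, 697 and 720 against 0, 0.06 and 256. In Irf3 XM_006540995.4 had 468, 751 and 591 counts against 234, 413 and 395 (log2 fold change -0.86, SE 0.306, adjusted p = 0.305), while NM_016849.4 had 434, 356 and 368 against 412, 353 and 345. Counts per transcript are estimates for forms that share most of their sequence, and none of these passed the edgeR test.

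**Figure D5:**
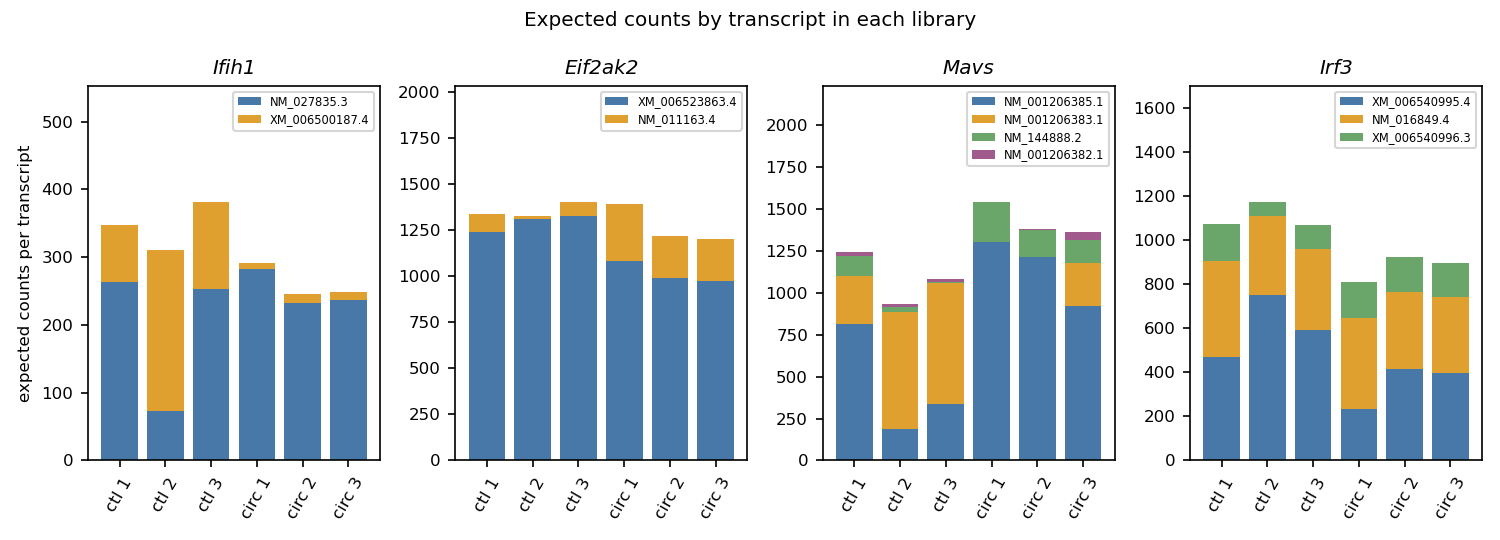
Expected counts of the transcripts of Ifih1, Eif2ak2, Mavs and Irf3 in the 3 control (ctl) and 3 circSlc17a5 (circ) libraries, stacked, leaving out forms with under 30 counts in all. The orange form of Ifih1 shrinks from 84.4, 237 and 128 counts to 9.62, 13.4 and 12.7, and the orange form of Eif2ak2 grows.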

How the data were processed

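Expected counts, FPKM and TPM were deposited by the authors per gene and per transcript for 6 libraries. Per the labels' protocols, total RNA was taken with TRIzol and a SMARTer mRNA-Seq kit gave the libraries. Per the submitters' processing notes, the tools were RSEM 1.2.12, HISAT2 2.0.4 and Bowtie2 2.2.5, with no roles stated. The authors' FPKM takes out gene length and library total. TPM values deposited by the authors were not tested. Per the file headers, the authors' own comparison used DESeq2 and gives log2 fold changes with p-values and q-values. Build, strand setting and filters: not given in the sources used here. RefSeq's GRCm38.p6 table held 15352 of the genes, and 74.3% of these had the same ends within 1 base, and positions of genes come from the files.

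Expected counts were rounded, filtered with filterByExpr, TMM-scaled and passed to edgeR 4.0.16 (R 4.3.3) for the two-sided quasi-likelihood test, circSlc17a5 over control. Standard errors are the absolute log2 fold change over the square root of F. CPM is per TMM-scaled total, and totals of 16848513 to 17600230 set the counting precision. Transcripts were tested likewise. Alternatives used DESeq2 1.42.0, limma 3.58.1 and a spline offset on GC content and length from GENCODE transcripts, which can also remove real differences tied to those properties. The fitting code was tested on simulated data. No replicate pair agreed within counting noise (chi-square per degree of freedom 2.3 to 25.5). Members and lists were chosen with earlier results of these data known. Values in every library were given by rule for called members, receptor, ISGF3 and sensor genes and the 3 most abundant, and pathway genes were named by smallest adjusted p and highest FPKM. Protein identities planned for paralogs were not analysed here, and a few genes of the further lists are counted but not reported singly. Of tested members, 7 overlap another gene's span (Cxcl10, Ddx58, Dhx58, Eif2ak2, Herc6, Parp9 and Stat2).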

Additional observations from a re-analysis of the deposited data

How the results depend on the processing

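The counts of called members (9 fallen, 3 risen) were set against those of other fits, with a limit of 1.5 times. They stayed within it with DESeq2 size factors, library totals, limma-voom, no filter on low counts, FPKM values and the replicate block. Fallen members numbered 6, at that limit, on library totals (Isg15, Ifnar2 and Trim30a ended) and on FPKM values (Ifnar2, Xaf1 and Trim30a ended). Larger changes were as follows. Risen members numbered 1 by the DESeq2 Wald test and 1 at a mean of at least 100 counts, where 25 members were tested. That filter left out Ifit2, Cxcl10 and Xaf1, and the 9 member calls that could be tested all stood. Over all genes at that filter, 1157 of 9755 rose and 1037 fell. With 1 library left out, fallen members ranged from 1 to 10 and risen from 0 to 3. In the same fits calls over all genes ranged from 346 to 2424 risen and from 116 to 2275 fallen. Risen and fallen pathway genes (3 and 18) ranged from 1 to 16 and from 2 to 28 with 1 library left out. They numbered 7 and 9 on library totals, 5 risen by the DESeq2 Wald test, 10 fallen on log2(FPKM + 1) and 5 and 11 on log2(FPKM + 0.1). With the replicate block 13 rose, and 12 rose without control replicate 1 and circSlc17a5 replicate 2. Over all genes 1386 rose and 1198 fell in the main fit. These numbers were 1789 and 609 on library totals, 1353 and 1224 by the DESeq2 Wald test and 1481 and 676 on log2(FPKM + 1). They were 1500 and 687 on log2(FPKM + 0.1), 2324 and 2105 with the replicate block, and 1951 and 1729 without that pair. Without that pair 10 of the 12 member calls remained (Isg15 and Cxcl10 ended). For these shifts the cause was not tested.

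The replicate block kept all 12 member calls, while calls over all genes went from 2584 to 4429. Same-numbered libraries deviated together at correlations of 0.219, 0.0678 and 0.0649, so the numbers were not taken to pair the samples, and control replicate 2 correlated best with circSlc17a5 replicate 3 (0.31). Over all genes the share of risen calls was 53.6%, against 74.6% on library totals, 68.7% on log2(FPKM + 1) and 43% with the GC and length offset. In the same order the median of the 33 members went from -0.14 to -0.07, -0.06 and -0.17. That of all genes went from -0.002 to 0.076, 0.051 and -0.029. With the GC and length offset Isg15, Ifit2 and Ifnar2 ended and Oas3, Herc6, Parp14 and Eif2ak2 were added as fallen. Transcript calls of members numbered 0, and by the DESeq2 Wald test 3 of 59 fell, where 3.65% of all transcripts did.

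Only members that were not called with all 6 libraries changed sign. With the GC and length offset the log2 fold change was -0.0336 for Ifnar1, 0.0146 for Bst2, -0.026 for Cmpk2, 0.0096 for Ifitm2 and 0.0732 for Ifitm3. On log2(FPKM + 1) it was 0.0019 for Ifitm3, 0.0059 for Parp9 and 0.043 for Eif2ak2, and on log2(FPKM + 0.1) 0.0019, 0.007 and 0.0457. On library totals it was 0.041 for Parp9 and 0.0049 for Trim25. With libraries left out, that pair included, the values ranged from -0.1614 to 0.0949 for Cmpk2, from -0.1567 to 0.0129 for Ifitm3, from -0.0961 to 0.0117 for Parp9, from -0.0396 to 0.1894 for Parp12 and from -0.3315 to 0.2197 for Gbp3. At the counts of Gbp3 (9 to 18 per library) small differences cannot be seen.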
